A study of Homo sapiens with 48 samples.

Results

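The response of H-1299 cells to carfilzomib was measured across all genes in 6 of the 48 RNA sequencing libraries of a study of 8 cancer cell lines. H-1299 is an established lung carcinoma line, labelled only as lung cancer. Carfilzomib is an irreversible inhibitor of the chymotrypsin-like activity of the proteasome, used against myeloma. Cells were grown in flat culture and exposed for 24 h to carfilzomib, at the dose equal to the IC50 for proteasome activity in this line, or to DMSO, the solvent. The concentration itself is not given in the sources used here. Each treatment had 3 libraries, which the labels call biological replicates without naming the cultures, so the p-values measure the spread between these samples. The labels name no other agent and no genetic change, and the results hold for 1 line at 1 dose and 1 time. Every gene with enough counts was a member: 16500 of the 33892 rows of the count table were tested.

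The proteasome is the barrel-shaped protease that breaks down proteins tagged with ubiquitin. When it is blocked, misfolded proteins build up, heat shock factor HSF1 switches on chaperone genes such as HSPA1A and DNAJB1, and the factor NFE2L1 is processed to its active form and drives the genes of the proteasome subunits. Cells can also turn to autophagy and the lysosome, and raise the unfolded protein response of the endoplasmic reticulum or the integrated stress response, in which the translation factor eIF2 is phosphorylated and ATF4 is made.

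The libraries held 38.5 to 64.4 M counts with DMSO and 24.0 to 35.4 M with carfilzomib, so that every control library was deeper than every treated one. The levels below are CPM, counts scaled to a common library total with TMM factors, given as the mean ± SD of 3 libraries. A fold change is on the log2 scale of the edgeR fit, given ± its standard error, and a gene was called at an adjusted p under 0.05. CPM are shares of a library: fewer cells and less RNA per cell cannot be told apart in them. The epithelial keratins KRT8 and KRT18 and the mesenchymal VIM were present in all 6 libraries, while of 14 lung epithelial markers with a row 8 were under 1 CPM in every library, among them the surfactant genes SFTPA1 and SFTPC. Of 9 leukocyte markers 6 were under 1 CPM throughout, and PTPRC was at 0 in 5 of the 6 libraries.

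Carfilzomib moved most of the transcriptome of H-1299, mostly by small amounts. Of the 16500 genes, 10093 were called (61.2%), 4922 higher (29.8%) and 5171 lower (31.3%). Calls of at least 2-fold were fewer and leaned downwards: 825 genes were higher (5.0%) and 1439 lower (8.72%), and 134 rose and 202 fell at least 4-fold. The treatments did not overlap in CPM for 66.2% of the genes. The median log2 fold change of all genes was -0.02. Scaled by library totals in place of TMM it was -0.12, and the share of calls that were higher went from 48.8% to 38.9%. Changes below are relative to the TMM scaling, and the counts for each gene list are to be read against the shares called among all genes.

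**Figure D1:**
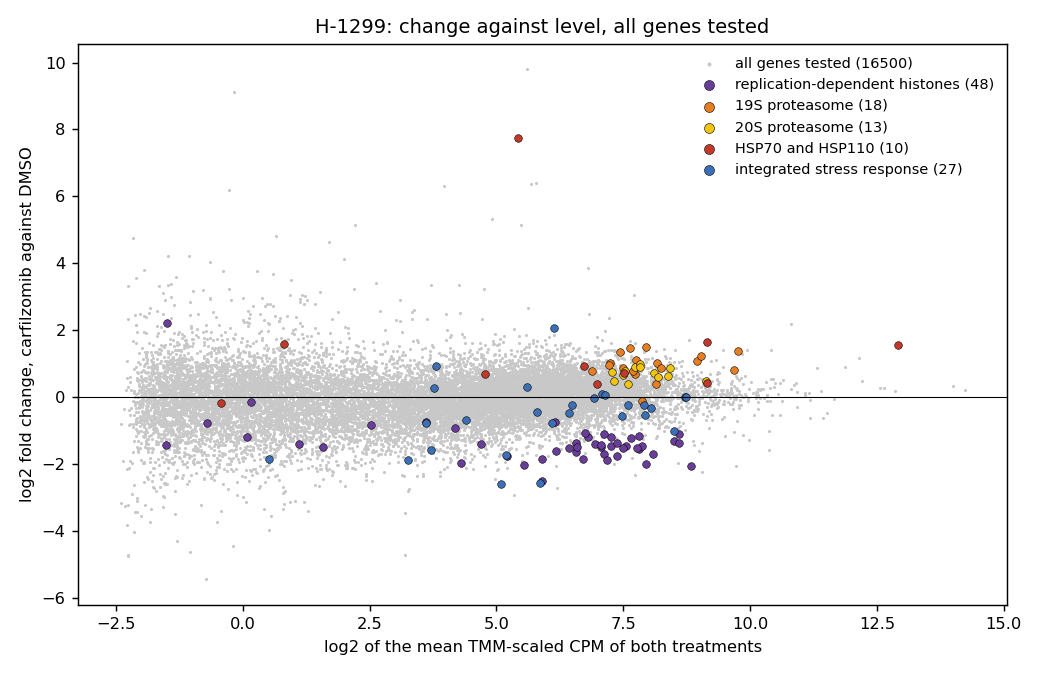
Log2 fold change of carfilzomib against DMSO in H-1299 (y axis) against the log2 of the mean CPM of both treatments (x axis), 1 point per gene for the 16500 genes tested, with the single-row members of 5 gene lists in colour. All but 1 of the proteasome genes lie above 0 and nearly all the replication-dependent histones below it, and HSPA6 stands far above the rest of its list.

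Heat shock genes had some of the largest rises. HSPA1A and HSPA1B, neighbouring genes for the stress-inducible HSP70, have near-identical transcripts and several rows each, so their reads were summed. The sum was 7.99, 5.33 and 6.96 CPM with DMSO and 528, 701 and 226 CPM with carfilzomib. No treated library came near a control library, and the third treated library was the lowest of the treated ones. The log2 fold change was 6.14 ± 0.36 (edgeR quasi-likelihood test, adjusted p 1.4e-08), a 70.5-fold rise by the fit. HSPA6, an inducible HSP70 that is nearly silent without stress, was at 0.504, 0.33 and 0.281 CPM with DMSO and 95.9, 85.5 and 74.7 CPM with carfilzomib. That is a log2 fold change of 7.75 ± 0.15 (edgeR, adjusted p 8.0e-12). HSPA8, the constitutive HSC70 that already made up a large share of the reads, was at 3530.1, 4502 and 3653 CPM with DMSO and 11599.6, 11604 and 11290.4 CPM with carfilzomib. Its log2 fold change was 1.56 ± 0.073 (edgeR, adjusted p 2.5e-09), and it gained more CPM than any other gene tested.

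The promoters of these genes are shown because HSF1 binds a repeat of short inverted units, the heat shock element, and the strength of induction differed widely between genes that carry it. The stretches are from the RefSeq table of GRCh38.p14, end 1 base before the annotated start, and have matches to GAANNTTC or TTCNNGAA, on either strand, in capitals. They lie at chr6:31815423-31815542 (plus strand, HSPA1A), chr6:31827618-31827737 (plus, HSPA1B), chr1:161524420-161524539 (plus, HSPA6), chr11:123062137-123062256 (minus, HSPA8), chr14:102087045-102087164 (minus, HSP90AA1) and chr19:14518398-14518517 (minus, DNAJB1).
HSPA1A: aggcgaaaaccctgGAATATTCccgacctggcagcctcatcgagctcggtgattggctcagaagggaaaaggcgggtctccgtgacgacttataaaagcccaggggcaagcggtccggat
HSPA1B: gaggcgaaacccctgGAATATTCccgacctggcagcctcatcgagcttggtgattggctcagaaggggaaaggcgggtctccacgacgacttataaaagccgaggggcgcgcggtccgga
HSPA6: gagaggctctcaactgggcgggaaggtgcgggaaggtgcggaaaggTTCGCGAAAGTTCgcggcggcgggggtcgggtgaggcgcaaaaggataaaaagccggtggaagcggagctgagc
HSPA8: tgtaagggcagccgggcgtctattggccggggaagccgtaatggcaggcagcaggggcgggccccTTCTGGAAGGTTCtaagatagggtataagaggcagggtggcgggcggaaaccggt
HSP90AA1: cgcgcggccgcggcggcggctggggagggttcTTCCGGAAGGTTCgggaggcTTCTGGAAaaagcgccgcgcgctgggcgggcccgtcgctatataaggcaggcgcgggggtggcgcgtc
DNAJB1: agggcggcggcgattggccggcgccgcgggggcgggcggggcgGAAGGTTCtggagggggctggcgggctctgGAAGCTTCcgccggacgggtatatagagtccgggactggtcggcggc
HSP90AA1 had 2 entries in the table and DNAJB1 3, of which the one with matches next to the start is printed. The windows of HSPA1A and HSPA1B, shifted by 1 base, were identical at 111 of 119 bases and carried the same GAATATTC match. HSPA6, HSPA8 and HSP90AA1 each held a longer run, TTCNNGAA followed by NNTTC.

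Genes that carry the element both rose and fell. In the 250 bases before the start, on either strand, 11.6% of all promoter entries held GAANNTTC or TTCNNGAA. There 0.441% held the 3-unit form, GAANNTTC followed by NNGAA. Of 52 tested genes with the 3-unit form, 24 were called higher (46.15%) and 16 lower (30.77%). The shares were 32.73% and 34.35% for the 11354 tested genes with an entry. Of the 24, 5 were at least 2-fold higher, namely HSPA6, HSPA8, HSP90AA1, the hydrolase gene ABHD3 at 1.57 and PAPPA2 at 1.89 on the log2 scale. The shares at least 2-fold higher and lower were 9.6% and 3.8%, against 4.6% and 9.0% of all tested genes with an entry. The 2 genes at least 2-fold lower were JAK3 and MAP2, by 1.5 and 1.49. These 4 genes outside the heat shock list were picked after their values were seen, and PAPPA2 had 3 to 30 counts a library. A match is a description of the letters and not evidence of binding.

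Cochaperones followed. HSP70 works with J proteins, which bring it substrates, and with nucleotide exchange factors of the BAG and HSP110 families. Of 10 HSP70 and HSP110 genes tested with a row of their own, 9 were called higher and none lower, with a median log2 fold change of 0.83 against -0.02 for all genes. HSPH1, the HSP110 gene, was at 256, 307 and 261 CPM with DMSO and 841, 862 and 871 CPM with carfilzomib, a log2 fold change of 1.64 ± 0.061 (edgeR, adjusted p 3.9e-10). Of 24 J protein genes, 18 were called higher and 3 lower, with a median of 0.50. DNAJB4 and DNAJB1 rose the most, by 1.79 and 1.71, DNAJB1 from 208 ± 8.01 to 679 ± 28.5 CPM. DNAJC10, DNAJC9 and DNAJC14 fell by 0.49, 0.35 and 0.28.

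BAG3, which links HSP70 to autophagy of aggregated proteins, was at 46.3, 51.6 and 47 CPM with DMSO and 250.3, 261 and 238 CPM with carfilzomib. Its log2 fold change was 2.37 ± 0.054 (edgeR, adjusted p 1.9e-11), with no overlap between treatments. Of 9 BAG and small heat shock protein genes 8 were called higher and none lower, among them HSPB1 from 72.7 ± 2.29 to 109 ± 9.4 CPM and the weakly expressed HSPB8 from 0.356 to 1.68 CPM. BAG5 did not pass the test, at 165 ± 10.5 to 165 ± 4.44 CPM.

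Most genes of HSP90 and its helpers rose. Of 18 genes tested, 11 were called higher and 3 lower, with a median of 0.46. HSP90AA1, the inducible cytosolic HSP90, was at 2675, 3056 and 2627 CPM with DMSO and 6556, 6074 and 6077 CPM with carfilzomib, and HSP90AB1, its constitutive partner, rose from 2597 ± 211 to 4849 ± 47.1 CPM. AHSA1, which speeds the ATPase of HSP90, rose by 1.18 ± 0.048 from 211 ± 13.9 to 475 ± 4.28 CPM. The 3 that fell were STUB1, the ubiquitin ligase that tags HSP70 and HSP90 clients (-0.87), TRAP1, the mitochondrial HSP90 (-0.56), and FKBP5 (-0.54).

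The cytosolic chaperonin and the mitochondrial chaperones changed by less than 2-fold. The 8 subunits of the cytosolic chaperonin TRiC had a median of 0.05, with TCP1 the largest at 0.53 on the log2 scale, from 1108 ± 82.4 to 1599.9 ± 15.3 CPM. Of 14 mitochondrial chaperones and proteases 9 were called higher and 2 lower, with a median of 0.23: the log2 fold changes of HSPD1 and HSPA9 were 0.42 and 0.43. Of 6 tested genes of heat shock factors and their regulators, 2 were called higher and 1 lower, with a median of -0.07. The highest was HSF2, a heat shock factor that forms trimers with HSF1. HSF2 went from 52.5 ± 3.01 to 140.3 ± 4.31 CPM, or 1.42 ± 0.052 on the log2 scale (edgeR, adjusted p 3.5e-10).

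**Figure D2:**
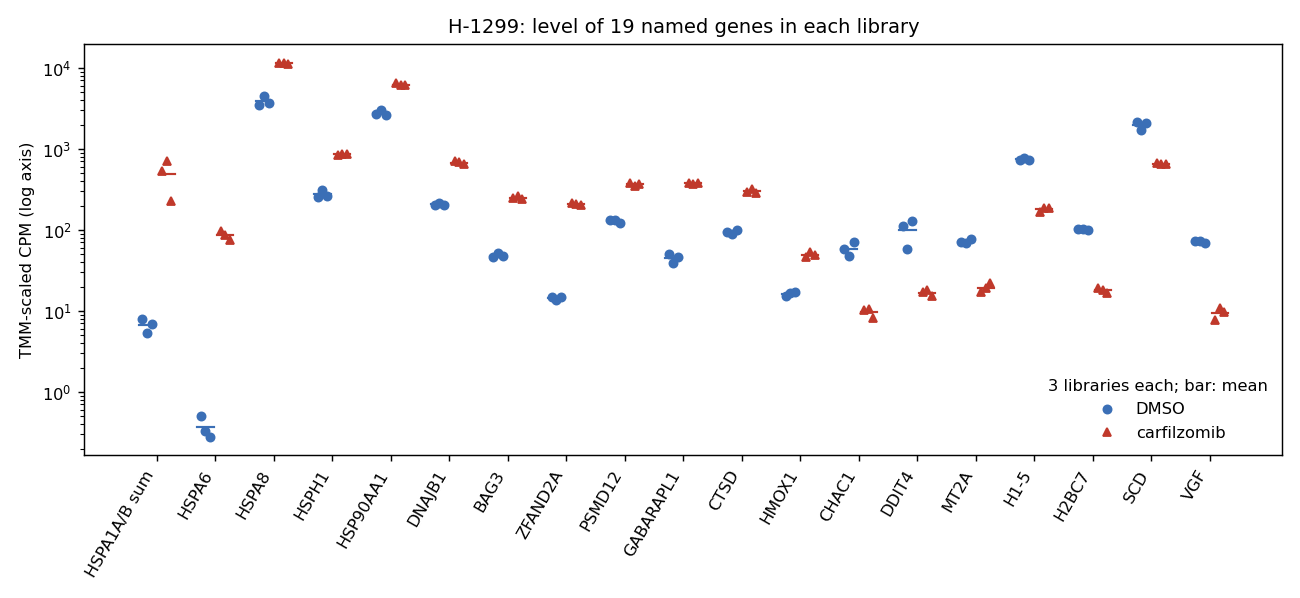
CPM on a log axis in each of the 6 H-1299 libraries for 19 named genes, DMSO as circles and carfilzomib as triangles, with a bar at the mean of 3. The treatments do not overlap for any of the 19, the sum of HSPA1A and HSPA1B spreads from 226 to 701 CPM with carfilzomib, and DDIT4 has the widest spread among the controls of the genes that fell.

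The proteasome genes rose as a body. All 13 genes of the 20S core with a row of their own were called higher, with log2 fold changes of 0.40 to 0.98 and a median of 0.72. Of 18 genes of the 19S regulatory particle, which binds and unfolds substrates, 17 were called higher, with a median of 0.99, and 9 of them at least 2-fold. PSMD12, a 19S lid subunit, was at 131, 134 and 121 CPM with DMSO and 384, 349 and 364 CPM with carfilzomib, a log2 fold change of 1.51 ± 0.051 (edgeR, adjusted p 2.1e-10). PSMD2, a 19S base subunit, rose from 478 ± 24.7 to 1252 ± 36.3 CPM, and PSMC6, a 19S ATPase, from 105 ± 4.12 to 289 ± 7.0 CPM. PSMB5, which encodes the subunit that carfilzomib binds, was near the low end of the core, rising from 133 ± 5.87 to 185 ± 5.71 CPM, or 0.49 ± 0.046 (edgeR, adjusted p 1.1e-06). PSMD7 alone of the 19S genes did not pass the test, at -0.10. The rows of PSMB3 and PSMC4 share identifiers with others and were left out: the PSMC4 row jumped from 77 to 3873 counts between control libraries.

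Assembly factors and activators of the proteasome were split. POMP, which matures the core, rose by 1.05 from 97.2 ± 2.87 to 202 ± 10.4 CPM, and PSME4, the activator PA200, by 1.36 from 71.6 ± 3.71 to 184 ± 3.35 CPM. The assembly chaperones PSMG1, PSMG3 and PSMG4 fell, with log2 fold changes of -0.30, -0.60 and -1.11. Of 12 genes 5 were called higher and 3 lower. The calls that were higher dropped from 5 to 3 without DMSO replicate 1 or carfilzomib replicate 2, and to 2 without DMSO replicate 3 or when scaled by library totals. PSMB10, a subunit of the immunoproteasome, fell from 17 ± 1.09 to 9.07 ± 0.735 CPM.

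NFE2L1, the factor that drives proteasome genes when the proteasome is impaired, was at 271, 270.1 and 272 CPM with DMSO and 333, 343 and 314 CPM with carfilzomib. Its own log2 fold change was small, 0.28 ± 0.042 (edgeR, adjusted p 6.5e-05). Its small MAF partners rose more, MAFF by 1.39, MAFG by 1.21 and MAFK by 0.88. Its relative NFE2L3 fell from 127 ± 8.57 to 59.3 ± 2.15 CPM, and DDI2, the protease that activates NFE2L1, fell by 0.26. NFE2L1 and its relatives bind with a MAF partner to a motif searched here as TGACNNNGC. This motif was in 10.9% of all promoter entries, on either strand. Of its 1787 tested genes 35.2% were called higher and 33.4% lower, against 32.73% and 34.35% of all tested genes with an entry. Stretches of 100 bases before the start are shown for 2 proteasome genes and for the glutathione gene GCLM, with the match in capitals, at chr17:39980707-39980806 (plus strand, PSMD3), chr2:53970994-53971093 (minus, PSME4) and chr1:93909431-93909530 (minus, GCLM).
PSMD3: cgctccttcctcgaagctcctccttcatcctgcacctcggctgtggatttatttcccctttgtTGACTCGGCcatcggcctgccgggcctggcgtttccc
PSME4: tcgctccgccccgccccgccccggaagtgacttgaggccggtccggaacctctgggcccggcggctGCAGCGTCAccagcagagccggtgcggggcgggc
GCLM: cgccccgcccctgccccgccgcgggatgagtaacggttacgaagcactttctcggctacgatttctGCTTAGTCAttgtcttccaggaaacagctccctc
PSMD3, a 19S lid subunit, rose by 1.11 on the log2 scale, and GCLM rose by 1.98 ± 0.081, from 57 ± 8.31 to 224 ± 8.76 CPM.

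Genes for ubiquitin and the enzymes that handle it rose in part. UBB, a polyubiquitin gene, was at 849, 869 and 889.8 CPM with DMSO and 1225, 1226 and 1139.6 CPM with carfilzomib, or 0.46 ± 0.041 on the log2 scale (edgeR, adjusted p 7.2e-07). The log2 fold change of RPS27A, which encodes ubiquitin fused to a ribosomal protein, was 0.08 and did not pass the test. USP14, a deubiquitinase of the 19S particle, rose from 34.4 ± 1.32 to 91.9 ± 2.62 CPM, and UCHL1, a deubiquitinase abundant in neurons, from 532 ± 7.85 to 1313 ± 39.5 CPM. Of 14 genes of the group 8 were called higher and none lower. Scaled by library totals, 4 of the 14 were called lower.

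VCP is an ATPase that pulls ubiquitin-tagged proteins out of membranes and complexes and feeds them to the proteasome, and ZFAND proteins link it to stress. ZFAND2A, induced by arsenite and heat, was at 14.8, 13.7 and 14.8 CPM with DMSO and 215, 207 and 205 CPM with carfilzomib. Its log2 fold change of 3.85 ± 0.052 had the smallest adjusted p of the named genes (1.9e-13, edgeR). ZFAND5, which binds the proteasome, rose from 170.3 ± 10.5 to 457 ± 15.3 CPM, the VCP cofactor PLAA from 69.6 ± 3.14 to 176 ± 3.94 CPM, and VCP by 0.53 from 1150.5 ± 38.9 to 1664 ± 55.1 CPM. In all 18 of 23 genes were called higher and 4 lower, with a median of 0.61. The lowest log2 fold change of the list was -1.01, the 1 member at least 2-fold lower. Those of ZFAND2B and UBXN6 were -0.29 and -0.28, and with an offset for the GC content of transcripts 1 of the 4 calls was left.

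Genes of the ATG8 family, the ubiquitin-like proteins that coat autophagosomes, moved unequally. GABARAPL1 was at 49.9, 39.5 and 46.5 CPM with DMSO and 378, 373 and 379 CPM with carfilzomib, a log2 fold change of 3.05 ± 0.070 (edgeR, adjusted p 1.9e-11). MAP1LC3B rose by 1.57 from 43.6 ± 2.15 to 129.5 ± 5.79 CPM. GABARAP, MAP1LC3A and GABARAPL2 were between -0.10 and 0.10 and did not pass the test. Of 37 genes of the autophagy machinery and its receptors, 26 were called higher and 5 lower, with a median of 0.31. The protease ATG4A, which trims ATG8 proteins, rose by 1.62 from 12.6 ± 0.616 to 38.6 ± 1.21 CPM. The kinase ULK1, which starts autophagy, rose by 1.31, its partner RB1CC1 by 1.08 and the receptor TAX1BP1 by 1.38, from 135 ± 6.45 to 351 ± 16 CPM. ATG10 fell from 24.4 ± 0.662 to 10.6 ± 0.985 CPM. The calls that were lower dropped from 5 to 3 without DMSO replicate 3. SQSTM1, the receptor p62, has 2 rows with a shared identifier and few counts, so no value is drawn from it.

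The lysosome was split, its proton pump less so. Of 38 lysosomal genes 21 were called higher and 11 lower, with a median of 0.23. GLA, the alpha-galactosidase, was at 31.6, 37.5 and 34 CPM with DMSO and 191, 197 and 190.1 CPM with carfilzomib, or 2.49 ± 0.059 (edgeR, adjusted p 2.2e-11). The protease CTSD rose from 94.3 ± 5.44 to 300.5 ± 21.4 CPM and the cholesterol exporter NPC1 from 79 ± 5.32 to 204 ± 2.2 CPM. NAGLU, an enzyme of heparan sulfate breakdown, fell from 17.6 ± 1.23 to 5.24 ± 1.02 CPM and the acid lipase LIPA from 50.2 ± 3.74 to 29.1 ± 0.83 CPM. Of 18 subunits of the V-ATPase, which acidifies lysosomes, 13 were called higher and 2 lower, with a median of 0.68. ATP6V0A1, ATP6V0B and ATP6V1H rose by 1.22, 1.06 and 1.03, and ATP6V0E2 and ATP6V1F fell by 0.73 and 0.49. TCACGTGA, the motif of the lysosomal regulator TFEB, was in 0.854% of promoter entries. Of its 206 tested genes 93 were called higher (45.15%) and 64 lower (31.07%). The shares were 32.73% and 34.35% for all tested genes with an entry. At least 2-fold higher and lower were 5.3% and 4.4% of the genes with the motif, against 4.6% and 9.0% of all tested genes with an entry.

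In the endoplasmic reticulum the chaperone side rose. HSPA5, the ER HSP70, was at 151, 141 and 148 CPM with DMSO and 309.9, 282 and 269 CPM with carfilzomib, or 0.97 ± 0.053 (edgeR, adjusted p 1.0e-08). Its J proteins DNAJB9 and DNAJC3 rose from 16.3 ± 0.211 to 48.2 ± 3.07 CPM and from 43.4 ± 0.88 to 113 ± 5.71 CPM, and HSP90B1, the ER HSP90, by 0.64. Of 34 genes of the unfolded protein response and ER-associated degradation, 20 were called higher and 7 lower, with a median of 0.31. The falls were small: CRELD2 and CREB3L2, the largest, were at -0.42 and -0.40, and 3 of the 7 were left when replicate 1 or replicate 3 of both treatments was taken out.

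Most transcripts of the integrated stress response list went the other way. ATF4 was at 424, 391 and 444 CPM with DMSO and 419, 426 and 408 CPM with carfilzomib, a log2 fold change of -0.01 ± 0.048 (edgeR, adjusted p 0.93), with overlapping treatments. With the GC offset it was called, at 0.15 (edgeR, adjusted p 0.010). Of 27 genes of the response, 18 were called lower and 3 higher, with a median of -0.44. CHAC1, which degrades glutathione, was at 57.9, 47.1 and 70.9 CPM with DMSO and 10.3, 10.4 and 8.13 CPM with carfilzomib. The log2 fold change was -2.6 ± 0.14 (edgeR, adjusted p 8.1e-09). DDIT4, an inhibitor of mTORC1, was at 112, 58.3 and 128 CPM with DMSO and 17, 18 and 15.2 CPM with carfilzomib. The second control library was the lowest of the controls, and the treatments did not overlap (log2 fold change -2.57 ± 0.23, edgeR, adjusted p 6.5e-07).

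Others of the group followed the same direction. ASNS, the asparagine synthetase, fell from 15.1 ± 1.44 to 4.1 ± 0.728 CPM, and the hormone-like GDF15, at 2.33, 1.45 and 3.0 CPM with DMSO and 0.322, 0.674 and 0.87 CPM with carfilzomib, also fell. The 3 genes that rose were PPP1R15A, which recruits the phosphatase of eIF2 (27.2 ± 1.7 to 114 ± 2.35 CPM, log2 fold change 2.07 ± 0.056), the transcription factor ATF3 (9.68 ± 0.683 to 18.6 ± 0.99 CPM) and DDIT3, which encodes CHOP. The DDIT3 call was weak: its treatments overlapped at 46.6, 34.9 and 48.6 CPM with DMSO and 61.5, 53.2 and 47.6 CPM with carfilzomib, and its adjusted p of 0.030 with edgeR was 0.097 with DESeq2. Without DMSO replicate 2, carfilzomib replicate 1 or carfilzomib replicate 2 the DDIT3 call was lost too (edgeR, adjusted p 0.085, 0.18 and 0.070). With the GC offset 5 genes of the list were called higher. A stretch of the CHAC1 promoter is shown because it holds TGATGCAA, a motif of ATF4 with C/EBP partners, on the opposite strand (in capitals), at chr15:40953251-40953350 (plus strand), from 220 to 121 bases before the start.
CHAC1: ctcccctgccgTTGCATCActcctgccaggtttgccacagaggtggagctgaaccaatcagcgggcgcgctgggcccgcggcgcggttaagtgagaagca
The motif was in 0.772% of all promoter entries. Of its 79 tested genes 26 were called higher (32.91%) and 25 lower (31.65%), near the 32.73% and 34.35% of all tested genes with an entry. Of 18 cytosolic aminoacyl-tRNA synthetase genes, many of them ATF4 targets, 7 were called lower and 3 higher, led by AARS1 at -0.56 and HARS1 at 0.38. Scaled by library totals, or without DMSO replicate 2, 11 were called lower.

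**Figure D3:**
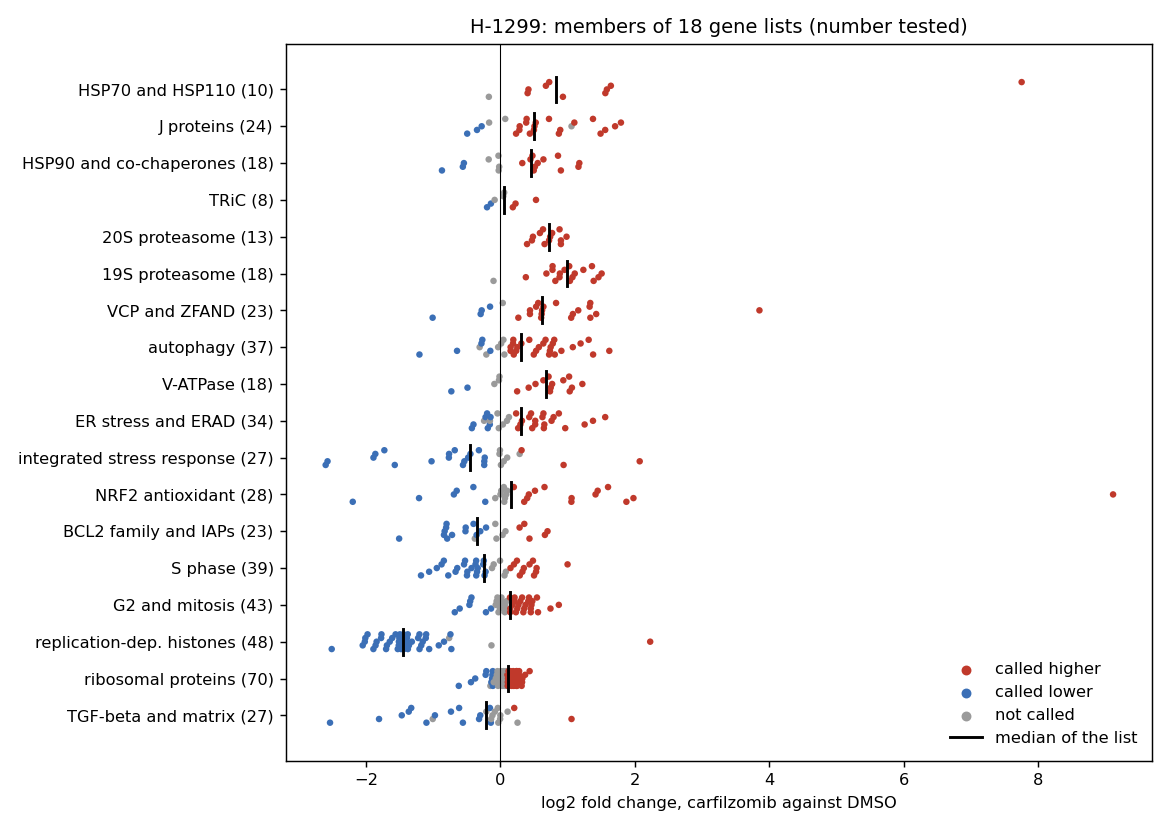
Log2 fold change of carfilzomib against DMSO in H-1299 for the single-row members of 18 gene lists (1 point per gene, number tested in brackets, black bar at the median), coloured by whether the gene was called higher, lower or not. All 13 members of the 20S list are called higher, 45 of 48 replication-dependent histones lower, and the AKR1B10 point of the NRF2 list at 9.11 is a gene with no reads in any control.

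The antioxidant genes of NRF2 showed a strong rise of a few members. GCLM, the modifier subunit of glutathione synthesis, was at 55.2, 66 and 49.7 CPM with DMSO and 227, 215 and 232 CPM with carfilzomib. HMOX1, the heme oxygenase, rose from 16.4 ± 0.958 to 49.6 ± 2.86 CPM, or 1.6 ± 0.071 on the log2 scale (edgeR, adjusted p 1.5e-09). OSGIN1 rose from 13.4 ± 1.81 to 49 ± 1.66 CPM, and TXNRD1, thioredoxin reductase, by 0.40. AKR1B10, an aldo-keto reductase, had no read in the controls and 1.69, 2.14 and 1.52 CPM with carfilzomib, at least 88.9-fold higher when 3 counts over the control group are taken as the floor. NQO1 did not pass the test, at 0.06, and ABCC3, AKR1C1 and GPX4 fell by 2.2, 1.21 and 0.69. Over 28 genes 14 were called higher and 6 lower, with a median of 0.15, which was the same with AKR1B10 at its bound.

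Iron storage rose and metallothioneins fell. FTL, the ferritin light chain, rose from 388 ± 22.9 to 1023 ± 35.8 CPM, and BLVRB, a biliverdin reductase, from 82 ± 5.6 to 155 ± 10 CPM. Of 14 heme and iron genes 9 were called higher and 2 lower, the falls being the iron and heme transporters SLC11A2 and SLC48A1. MT2A, the metallothionein that binds zinc and copper, was at 70.1, 68.3 and 77.3 CPM with DMSO and 17.2, 19.1 and 21.8 CPM with carfilzomib. That is a fall of 1.89 ± 0.083 on the log2 scale (edgeR, adjusted p 1.4e-09). MT1X fell from 11.6 ± 0.785 to 5.04 ± 0.58 CPM and the zinc exporter SLC30A1 by 0.66, while MTF1, the zinc-sensing transcription factor of these genes, rose by 0.68. Of the 13 genes of that list 5 were tested.

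The BCL2 family leaned downwards on both sides. Of 23 genes 13 were called lower and 5 higher, with a median of -0.35. Among the pro-apoptotic BH3-only genes, HRK fell from 8.14 ± 0.697 to 2.85 ± 0.347 CPM, BBC3 by 0.84 and PMAIP1 from 23.3 ± 3.15 to 16.4 ± 1.33 CPM. The BBC3 treatments overlapped, and its call was lost without replicate 3 of both treatments and with the GC offset (edgeR, adjusted p 0.077 and 0.094). The survival genes MCL1 and BIRC3 fell by 0.30 and 0.83, BIRC3 from 198 ± 25.2 to 111 ± 11.9 CPM. BAK1, a pore-forming effector, rose from 33.2 ± 1.84 to 52.4 ± 3.57 CPM, BIRC6 by 0.70 and APAF1, the core of the apoptosome, by 0.43. Of 16 death receptor and caspase genes, 7 were called higher and 4 lower. TNFRSF10D, a decoy receptor for TRAIL, rose from 26 ± 1.06 to 79.3 ± 5.18 CPM, and TNFRSF1A, a receptor of TNF, fell from 168 ± 20.5 to 69.9 ± 1.25 CPM.

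The CDK inhibitor gene CDKN1A rose while those of cyclins D1 and D2 fell. CDKN1A, which encodes p21, was at 30.2, 30.7 and 28.2 CPM with DMSO and 65.4, 66.9 and 67 CPM with carfilzomib, or 1.16 ± 0.055 (edgeR, adjusted p 2.9e-09). CCND1, cyclin D1, fell from 335 ± 40.8 to 140.3 ± 3.45 CPM, and CDKN2B and CCND2 fell by 1.29 and 1.28. In all 9 of 14 genes were called lower and 3 higher. Of 26 p53 target genes tested, 11 were called higher and 8 lower, with a median of 0.10 and values from -1.33 to 1.32. GADD45A, a stress gene that restrains the cycle, was the highest of them, from 38.6 ± 1.62 to 96 ± 3.02 CPM. The phosphatase gene PPM1D rose from 27.6 ± 0.343 to 54.3 ± 1.4 CPM.

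The replication and mitosis genes did not move as one. Of 39 S-phase genes 22 were called lower and 12 higher, with a median of -0.25. MCM6, a subunit of the replicative helicase, fell from 190.2 ± 5.81 to 83.9 ± 4.11 CPM, and E2F1, which drives the programme, from 67.5 ± 9.03 to 35 ± 1.64 CPM. ORC1, of the origin recognition complex, rose from 51.8 ± 6.58 to 103 ± 5.07 CPM, RRM1 from 177 ± 11.8 to 257 ± 7.78 CPM and CLSPN, a checkpoint adaptor, by 0.53. Of 43 genes of G2 and mitosis, 24 were called higher and 7 lower, with a median of 0.15 and none changed 2-fold. MKI67, the proliferation antigen, was at 267, 279 and 266 CPM with DMSO and 362, 374 and 377 CPM with carfilzomib, or 0.45 ± 0.039 (edgeR, adjusted p 5.5e-07). The phosphatases CDC25A and CDC25C rose by 0.87 and 0.75, while CDC25B, CDC20 and SPC24 fell by 0.60, 0.46 and 0.68. CCNB1 did not pass the test, at 596, 624 and 605 CPM with DMSO and 619.6, 633 and 667 CPM with carfilzomib, with overlap. Scaled by library totals 15 genes of the list were called lower, and with the GC offset 11.

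Of the gene lists with over 20 tested members, the histones had the largest share of falls. Replication-dependent histones supply chromatin during S phase, from short genes without introns whose transcripts end in a stem-loop and not in a poly(A) tail, and the total RNA kit used here can capture them. Of 48 tested, 45 were called lower (93.8%), 41 of them at least 2-fold, with a median of -1.44. H1-5, a linker histone, was at 726, 770.1 and 724 CPM with DMSO and 166, 184 and 187 CPM with carfilzomib. H2BC7, the one that fell the most, was at 103, 103 and 101 CPM with DMSO and 19.1, 18.2 and 16.5 CPM with carfilzomib, or -2.51 ± 0.060 (edgeR, adjusted p 2.2e-11). The classes fell alike: 13 of 14 H2A genes, 14 of 15 H2B genes, 7 of 8 H3 genes and 10 of 10 H4 genes were called lower, with medians of -1.47, -1.38, -1.43 and -1.44. H3C3 rose, but from 0.118 to 0.598 CPM, and was not tested when a mean of 50 counts was required. Coding sequences of many of these copies are near-identical, so the share of each single gene is uncertain.

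Genes that make histone transcripts mostly did not fall with them. Of 10 tested, 5 were called higher and 1 lower: ZNF473, which takes part in cutting the transcript's end, rose from 23.6 ± 0.774 to 49.6 ± 2.75 CPM, and the transcription factors HINFP and POU2F1 rose by 0.89 and 0.81. The factor that fell was CPSF3, the endonuclease, by 0.23. Without DMSO replicate 3, or with the GC offset, 2 of the 10 were called lower, and by library totals 3. Histone variants made outside S phase also fell in 6 of 8 cases. H2AJ went from 69.8 ± 2.32 to 20.9 ± 2.04 CPM.

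Genes with few exons were called lower more often than the rest. Among 13007 protein-coding genes 33.7% were called higher and 34.5% lower. Of 367 genes whose principal transcript has 1 exon, 10.4% were called higher and 58.3% lower, with a median of -0.70. Leaving out the histones, 53.7% of 326 were lower and 11.7% higher, with a median of -0.50. Genes with 2 exons had a median of -0.44, and those with over 20 exons, of which 40.2% were higher, one of 0.07.

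GC content moved with the response as well. Divided into 5 classes of equal size by GC, genes of the lowest class were called higher in 45.9% and lower in 24.4% of cases, and those of the highest in 20.4% and 46.1%. Exon number and GC were not the same division: genes with at most 2 exons were lower in 43.2% to 65.1% of cases in each of the 5 GC classes, and those with over 10 exons in 22.3% to 39.8%. Of 409 lincRNA genes 37.9% were called lower and 10% higher. Whether RNA quality, library preparation or transcription had a part in these shares was not tested.

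**Figure D4:**
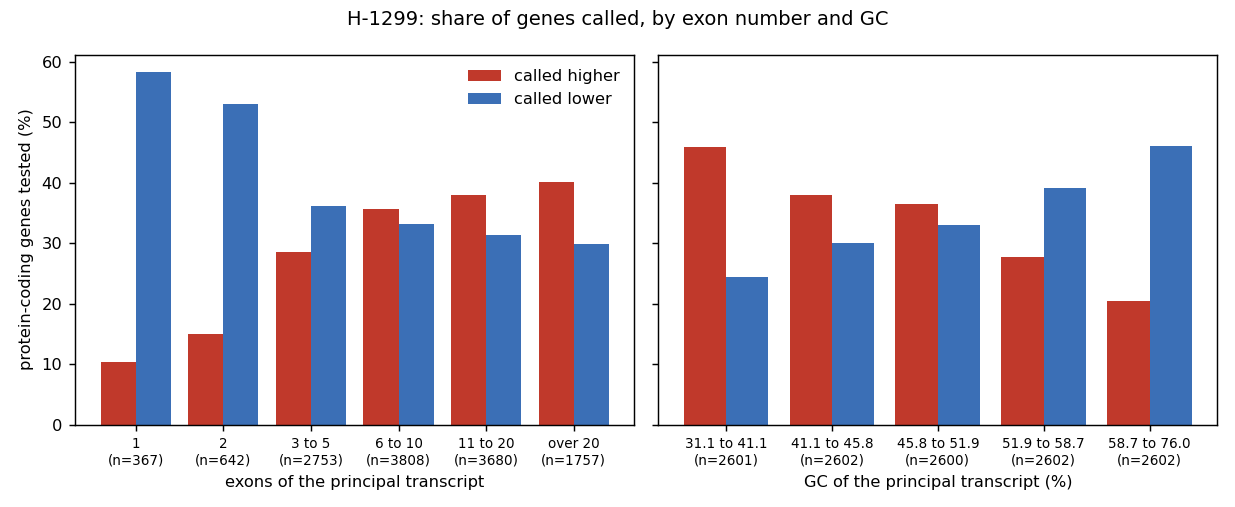
Percent of H-1299 protein-coding genes called higher and lower, by the number of exons of the principal transcript (left) and by its GC content in 5 classes of equal size (right), with the number of genes under each pair of bars. The share called lower falls from 58.3% for 1 exon to 29.8% for over 20 exons, and rises from 24.4% to 46.1% from the lowest to the highest GC.

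Among transcription regulators the immediate early genes were split by identity. FOSB and FOS, subunits of AP-1, rose from 0.531 ± 0.0427 to 3.83 ± 0.516 CPM and 2.77 ± 0.748 to 11.1 ± 0.486 CPM, and the nuclear receptor NR4A1 from 6.34 ± 1.04 to 17 ± 1.1 CPM. KLF4 fell from 25.1 ± 2.54 to 8.78 ± 1.17 CPM and IER2 from 147 ± 4.82 to 61.3 ± 2.28 CPM. Of 19 genes 8 were called higher and 9 lower. MYC was at 192, 245 and 216 CPM with DMSO and 159.6, 159 and 172 CPM with carfilzomib, or -0.41 ± 0.072 (edgeR, adjusted p 2.9e-04), while its antagonist MXD1 rose from 19.2 ± 0.265 to 68.3 ± 5.32 CPM and its partner MAX by 0.73. The cyclins T of the elongation factor P-TEFb, CCNT1 and CCNT2, rose by 0.52 and 0.58. RN7SK, the RNA that holds P-TEFb inactive and the row with the most counts in each library, had a log2 fold change of 0.21, no longer called when scaled by library totals (edgeR, adjusted p 0.087).

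Immune signalling genes moved in both directions. Of 18 NF-kB genes 8 were called lower and 3 higher, against 31.3% and 29.8% of all genes: CXCL2 and LIF fell by 0.75 and 0.91, and RELA and REL rose by 0.50 and 0.60. Over this list the log2 fold changes ran from -0.91 to 1.53. Of 14 interferon genes with a row of their own, 5 were called lower and 3 higher, a share of falls near that of all genes. ISG15 fell from 33.6 ± 1.17 to 16.6 ± 2.85 CPM and OAS3 by 0.84, while IFIT2 rose from 4.34 ± 0.473 to 12.6 ± 0.731 CPM and STAT2 from 61.6 ± 5.51 to 114 ± 2.4 CPM. Log2 fold changes of the interferon list ran from -1.26 to 1.54.

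The translation machinery changed by small steps. Of 70 ribosomal protein genes 36 were called higher and 10 lower with a median of 0.11 and no 2-fold change. That direction depended on scaling: by library totals 18 were higher and 19 lower. Of 34 ribosome biogenesis genes 16 were called lower and 7 higher, POLR1B, a subunit of RNA polymerase I, from 130.3 ± 10.9 to 70.1 ± 3.27 CPM, UBTF, its activator, from 133 ± 3.13 to 76.6 ± 0.861 CPM and RRS1 from 67.5 ± 9.88 to 34.7 ± 1.63 CPM. RRP12 rose by 0.67. Without replicate 2 of both treatments 13 of them were called higher.

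Genes of lipid synthesis moved in both directions. SCD, the stearoyl-CoA desaturase, was at 2137, 1725 and 2089 CPM with DMSO and 668, 659 and 653 CPM with carfilzomib, or -1.59 ± 0.067 (edgeR, adjusted p 1.1e-09). SREBF1, the regulator of fatty acid synthesis, fell from 319 ± 31.7 to 89.8 ± 3.71 CPM, and the elongase ELOVL6 from 44.4 ± 1.48 to 21.5 ± 2.01 CPM. HMGCS1, an early enzyme of the sterol pathway, rose from 95.8 ± 6.0 to 195 ± 2.22 CPM, and NSDHL by 0.87. Of 28 genes 13 were called lower and 9 higher. Of 26 hypoxia and glycolysis genes 14 were called higher and 9 lower, with a median of 0.21. NDRG1, a stress gene, rose from 0.762 ± 0.147 to 2.63 ± 0.336 CPM and P4HA2, a collagen prolyl hydroxylase, from 15.5 ± 0.682 to 51.9 ± 4.15 CPM. HK2 fell from 47.6 ± 5.84 to 20.1 ± 1.65 CPM, VEGFA from 46.5 ± 6.4 to 22.3 ± 1.93 CPM and the glucose transporter SLC2A1 by 0.69.

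Of 22 cytoskeleton and identity genes 9 were called lower and 7 higher. The keratins KRT8, at 253, 276 and 266 CPM with DMSO and 88.7, 99.9 and 91.3 CPM with carfilzomib, and KRT18, from 669.9 ± 42.6 to 270.4 ± 9.25 CPM, fell by 1.5 and 1.31. VIM fell from 3338 ± 163 to 2179.8 ± 21.4 CPM and ACTB from 2824 ± 103 to 1838 ± 80.8 CPM, while ACTG1, another cytoplasmic actin, did not pass the test at -0.05 and was called with the GC offset, at 0.10 (edgeR, adjusted p 0.016). The tubulin TUBB2A rose from 28.3 ± 0.938 to 81.5 ± 5.27 CPM. AHNAK2, a giant scaffold protein, was at 1403, 1273 and 1430.0 CPM with DMSO and 316, 343 and 318 CPM with carfilzomib, or -2.07 ± 0.053 (edgeR, adjusted p 3.4e-11). Of 27 TGF-beta and matrix genes 14 were called lower and 2 higher. TGFB2 fell from 16.8 ± 0.442 to 6.09 ± 0.528 CPM, and the 2 that rose were CCN2, from 74.1 ± 19.1 to 154 ± 5.94 CPM, and ITGA5, from 79.1 ± 3.12 to 91.1 ± 6.14 CPM. The ITGA5 call was lost when scaled by library totals (edgeR, adjusted p 0.14), and with the GC offset 6 genes of the list were called higher. Among drug transporters, ABCB1 and ABCB6 rose by 0.99 and 1.18 and ABCC3 fell from 5.54 ± 1.71 to 1.23 ± 0.296 CPM.

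The largest rises by fold among well-counted genes included 9 genes in none of the lists, all under 4 CPM with DMSO. TUBA4A, an alpha-tubulin, was at 0.563, 0.33 and 0.352 CPM with DMSO and 7.48, 8.03 and 7.22 CPM with carfilzomib, or 4.13 ± 0.22 (edgeR, adjusted p 6.6e-09). STYK1, a pseudokinase, rose from 3.48 ± 0.438 to 35.1 ± 1.76 CPM, the dynein chain DYNC1I1 from 2.32 ± 0.337 to 23.8 ± 1.86 CPM, the protease ADAMTS1 from 1.04 ± 0.165 to 11.3 ± 1.16 CPM, CPA4 from 0.876 ± 0.182 to 8.21 ± 0.608 CPM and the secreted peroxidase GPX3 from 2.05 ± 0.519 to 15.1 ± 0.121 CPM. AGTR1, RGMA and C7orf61 rose by 3.15, 2.92 and 3.05 from under 1 CPM.

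The largest falls by fold were picked among genes well counted with DMSO, and the rises among genes well counted with carfilzomib. Their DMSO levels are therefore not to be compared. VGF, a neuropeptide precursor, was at 73.5, 71.9 and 69.2 CPM with DMSO and 7.72, 10.9 and 9.66 CPM with carfilzomib, or -2.91 ± 0.097 (edgeR, adjusted p 2.0e-10). G0S2, an inhibitor of the triglyceride lipase ATGL, was at 111, 148 and 121 CPM with DMSO and 18, 19.6 and 19.8 CPM with carfilzomib, or -2.73 ± 0.098 (edgeR, adjusted p 3.2e-10). CITED4, a coactivator, fell from 16.8 ± 2.32 to 1.56 ± 0.441 CPM, and the calcium channel gene ORAI3 from 16.7 ± 3.79 to 2.35 ± 0.323 CPM. GASK1B, FNDC10, NDST3, SORCS2, CRH, APLN and the antisense RNA MHENCR were at 2.17 to 7.0 CPM with DMSO and fell by 2.64 to 3.34 on the log2 scale. Counting by strand is not given in the sources used here, so reads of MHENCR and of a gene on the other strand cannot be told apart. GAGE12G belongs to a family of near-identical genes and 1 of its control libraries was apart, at 1.79, 1.04 and 6.38 CPM with DMSO and 0.482, 0.381 and 0.392 CPM with carfilzomib, so its fall of 2.87 is uncertain.

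Set against the mean response of the other 7 lines, H-1299 had 8302 of 22302 genes called as different (37.2%), 3807 with a more positive response (17.1%) and 4495 with a more negative one (20.2%). The error in this test is the spread between replicates and not between lines, and the other lines were treated at their own concentrations. ZFAND2A exceeded the mean of the others by 2.50 ± 0.10 on the log2 scale (edgeR, adjusted p 2.6e-23). HSPA8 rose by 1.49 in H-1299 in the joint fit and had -1.30 in RKO and 1.21 in RPMI, a difference of 1.45 ± 0.088 from the mean of the others (adjusted p 6.5e-18). The sum of HSPA1A and HSPA1B exceeded that mean by 2.99 ± 0.49, yet its rise of 6.08 was below those of the myeloma lines H-929, at 9.46, and RPMI, at 7.67.

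The response of MKI67 had the opposite sign in the other lines. MKI67 rose in H-1299 and had negative log2 fold changes in the other 7, of -1.12 to -0.41, a difference of 1.01 ± 0.060 (edgeR, adjusted p 4.1e-18). Of 43 G2 and mitosis genes 36 were called more positive than in the other lines and 3 more negative. Histones fell further: 39 of 48 were called more negative and 2 more positive. Of 18 genes of the 19S particle 14 were called more positive and 2 more negative, although their median in the joint fit, 0.92, was below that of CAPAN-2, 1.34, and those of the other lines ran from -0.06 to 0.88. Of 27 TGF-beta and matrix genes 16 were called more negative and 2 more positive. MT2A, at -1.96, lay below all 7 others, whose values ran from -0.64 to 1.02. CITED4, VGF and G0S2 differed from the mean of the others by -4.41 ± 0.24, -4.11 ± 0.19 and -3.43 ± 0.30, and each had under 3 counts on average in 1 of the 16 groups.

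**Figure D5:**
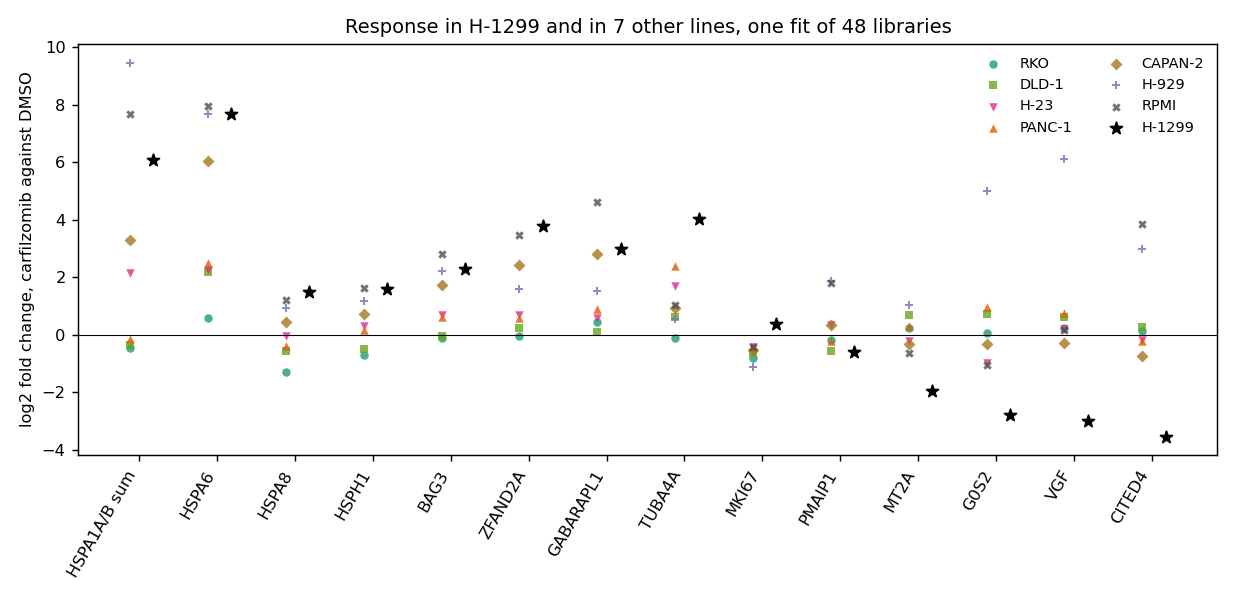
Log2 fold change of carfilzomib against DMSO from 1 fit of all 48 libraries for 14 genes, with H-1299 as a star and the other 7 lines as symbols. H-1299 is the only line above 0 for MKI67 and the lowest for MT2A, VGF, G0S2 and CITED4, and the highest for HSPA8.

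H-23 is the other lung line of the study. The difference between the lung lines was called for 42.5% of 19065 genes, 21.8% more positive in H-1299 and 20.7% more negative. For DNAJB1 and BAG3 it was 1.79 and 1.69 on the log2 scale (edgeR, adjusted p 2.0e-12 and 9.2e-12), and for GABARAPL1 2.45. Among 13 genes of the 20S core 12 were called more positive in H-1299 and none more negative, and among 18 of the 19S particle 15 and 0. Of 48 histones 37 were called more negative and 1 more positive. For HMOX1 the difference was 0.25 (adjusted p 0.024), and BLVRB had a difference of -0.02 that did not pass the test.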

How the data were processed

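RNA of H-1299 cells was extracted with Qiazol and sequenced in stranded libraries made with a total RNA kit, per the labels' protocols, while the design text speaks of mRNA. The authors deposited 1 table of counts, 33892 rows by 48 libraries, of which 6 are of H-1299 and 0 columns were left unused. The submitters' processing notes name bcl2fastq 2.19, FastQC, Trimmomatic, HISAT2, DESeq2 and hg38, with no roles. The counting program, its annotation and its strand setting are not given in the sources used here.

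Counts were tested with edgeR 4.0.16 in R 4.3.3 (TMM scaling, filterByExpr, quasi-likelihood F test, Benjamini-Hochberg adjustment, threshold 0.05), which was also tested on simulated data. CPM were computed from the counts. The fit for H-1299 held its 6 libraries, that against H-23 the libraries of both lung lines, and that against the other 7 lines all 48. The biological coefficient of variation was 9.35% in H-1299. Identifiers of 29677 rows (87.563%) matched GENCODE 29, which gave exon number, GC content and gene type. Identifiers held by several rows (1948 identifiers, 4803 rows) were left out of list counts. Promoters are from the RefSeq table of GRCh38.p14.

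Members and gene lists were chosen with earlier results of these data known. The genes named are a set of fixed genes, HSPA1A and HSPA1B as 1 sum, the 12 largest rises and falls by fold with no overlap, an identifier of 1 row, no clone name and 100 or more mean counts under the treatment with more, the 5 largest by CPM, and in each list the 3 largest rises and falls and the highest member. The 6 genes on each side that differed most from the other lines were added, and lists of 20 or fewer could be named in full. NQO1 and the genes named for a promoter motif alone were added after their values were seen. Alternatives were DESeq2 1.42.0 (Wald test, size factors), library totals, other filters, thinned libraries (seed 20), a replicate block, left-out libraries, 1 fit of all libraries, rows with shared identifiers summed or left out, a null fold change of 1.5, an adjusted p under 0.01, and, chosen after seeing the data, an offset for GC content. Rows of the mitochondrial genome were not analysed here. Some named genes are not reported here.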

Additional observations from a re-analysis of the deposited data

Results flagged for a closer look

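By the edgeR quasi-likelihood test of the difference, the response of H-1299 differed by at least 1.0 on the log2 scale from the mean response of the other 7 lines for 80 of the 302 genes that the naming rule picks, 32 on the positive and 48 on the negative side. The rule picks genes in part by this difference and by the size of the H-1299 response. The count therefore does not describe all genes, and their share at this size is not given here. The 20 given here are from the genes fixed by name and the 6 genes on each side that differed most. Among the rest, CHAC1 was at -2.89, KLF4 at -2.87, DDIT4 at -2.84, FOS at 1.90 and DNAJB9 at 1.29. Among stress genes the difference was 3.51 for HSPA6, 2.99 for the sum of HSPA1A and HSPA1B, 2.50 for ZFAND2A, 1.45 for HSPA8, 1.41 for GABARAPL1 and 1.17 for both BAG3 and HSPH1. A difference from the mean does not make H-1299 the highest line. In the joint fit GABARAPL1 was at 2.98 in H-1299 and 4.61 in RPMI, and BAG3 at 2.30 and 2.82. For these genes RPMI alone lay above H-1299. For TUBA4A it was 3.02, for C7orf61 2.43, for RGMA 2.07 and for MKI67 1.01.

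On the other side it was -4.41 for CITED4, -4.11 for VGF, -3.82 for PICART1, -3.82 for THSD7A, -3.56 for ABCC3 and -3.43 for G0S2. It was -2.20 for GDF15, -2.12 for MT2A and -1.07 for PMAIP1. Of the 19 that are single rows, 10 had under 3 counts on average in at least 1 of the 16 groups, so that the response of some other line rests on few reads: ABCC3, C7orf61, CITED4, G0S2, GDF15, HSPA6, PICART1, RGMA, THSD7A and VGF. The THSD7A call was lost without replicate 1 of all groups, at -2.88.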

How the results depend on the processing

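With 3 libraries a group, 1 dose and 1 time, the results hold for these samples, and control libraries were deeper. Against a null fold change of 1.5 in place of none, 1260 genes were called higher and 1713 lower, and in the gene lists 151 and 115. The counts over all genes, over the lists and for the differences between lines stayed within 1.5 times under the other alternatives: 3981 and 6252 by library totals, 4922 and 4898 with the DESeq2 Wald test, and 5190 and 4999 with the GC offset. Leaving out libraries gave 4281 to 4915 higher and 4423 to 5107 lower, and 369 to 428 and 268 to 298 in the lists. With the replicate number as a block 4898 genes were higher and 5143 lower, and in the lists 414 and 300. No pairing by number was seen over all genes: deviations of same-numbered libraries correlated at 0.0175, -0.0015 and -0.0063, under the threshold of 0.1. Whether same-numbered libraries shared a culture or day is not given in the labels, and this check cannot tell. The CDKN1B call was lost under the block (edgeR, adjusted p 0.053).

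Among the named genes 9 changed sign under some setting, and the cause was not tested. MEPCE, at -0.22, was called and turned to 0.054 with the GC offset. The others did not pass the test with the settings of the report. Under the settings below 5 of them did (edgeR): ATF4 and ACTG1 with the GC offset (adjusted p 0.010 and 0.016), ITGB1 and NONO by library totals (0.033 for both) and MTHFD2 without DMSO replicate 2 (0.024). ATF4 was 0.0078 with DESeq2 size factors and with the DESeq2 Wald test, 0.0024 with shared rows left out, 0.15 with the GC offset and -0.066 to 0.058 with libraries left out. BAG5 was 0.011 with either DESeq2 setting, 0.0048 thinned, 0.0064 with shared rows left out and -0.042 to 0.072 with libraries left out. ITGB1 was -0.11 by library totals, -0.0063 without a filter, -0.00045 at a mean of at least 50 counts, -0.070 in 1 fit of all libraries, -0.0016 thinned, -0.082 with the GC offset and -0.041 to 0.036 with libraries left out. MTHFD2 was -0.10 by library totals, -0.062 in 1 fit of all libraries, -0.055 with the GC offset and -0.10 to 0.089 with libraries left out. NONO was -0.086 by library totals and -0.047 in 1 fit of all libraries, CCNB1 -0.037 by library totals, ACTG1 0.10 with the GC offset and -0.096 to 0.0019 with libraries left out, and HSBP1 -0.11 to 0.025 with libraries left out.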
